A study of Saccharomyces cerevisiae with 13 samples.

Results

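Transcript levels of budding yeast at mitotic exit and in early G1 were set against those of S phase and G2 by comparing the arrays of 60 and 70 min after release from alpha factor with the arrays of 90 and 100 min. These are 4 of the 13 arrays of a time course, chosen by the time in their titles. Of 6205 rows that name an open reading frame, 6166 had a usable value on all 4 arrays and were tested. The time course sampled Saccharomyces cerevisiae cells every 10 min from 0 to 120 min after their release from an alpha factor arrest into YEPD, a rich medium. Total RNA of each time point, labelled with Cy5, was hybridised on a 2-colour array with Cy3-labelled RNA of an asynchronous culture grown overnight in YEPD to an OD of 0.6. Each time point has 1 array, no replicates were made, and the labels give no strain. The arrays within each pair are neighbouring time points, so the errors below hold real change over 10 min as well as measurement error, and the p-values measure only the spread between these arrays.

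Alpha factor is the pheromone of the opposite mating type and holds MATa cells in G1, so that release sends them through the cycle together. At the end of mitosis the mitotic exit network lowers cyclin-dependent kinase activity, and transcription factors such as Swi5 enter the nucleus and switch on genes for G1 entry and for the separation of daughter from mother. At the same time Mcm1, freed of its repressors at early cell cycle boxes (ECB), drives genes that prepare origins and the next G1, while histone genes are transcribed in S phase and wall synthesis follows the growing bud. In bulk samples, fewer cells in a stage and less RNA per cell cannot be told apart.

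All values are log2 ratios of a time point to the asynchronous culture, and a difference is the mean of 60 and 70 min minus the mean of 90 and 100 min, so that a positive difference is higher at mitotic exit and early G1. The direction of the deposited ratios is unstated. It was taken as likely to be time point over culture, because 27 genes of pheromone response and of MATa cells had a median log2 ratio of 2.22 at 0 min. The opposite direction would turn every sign below. The arrays from 40 to 120 min share a file stamp, which the 4 arrays from 0 to 30 min do not. On the 4 arrays compared, 34 values lay at the limit of 100-fold and were treated as missing, 23 of them at 60 min. The 60 min array also had the widest spread (SD 0.43, against 0.32 to 0.34 on the other 3 arrays). It correlated with the 70 min array at r = 0.53 over 6166 genes, while the 90 and 100 min arrays correlated at 0.70, and genes are not independent replicates. The 70 min array correlated with the 90 min array, of the other pair, at 0.52. Between those arrays 88 genes differed by at least 1 log2, against 121 genes between 60 and 70 min.

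Acid phosphatase genes, the daughter-specific repressor ASH1, origin licensing genes and a mating gene were higher at 60 and 70 min, and histone genes and 3 genes of the cell wall were lower. By limma at a Benjamini-Hochberg adjusted p under 0.05, 10 genes were higher (0.162% of those tested) and 7 were lower (0.114%), and these are the genes spoken of as called. Their differences ran in size from 1.17 to 2.09 log2 on the higher side and from 1.10 to 2.77 on the lower side. At an unadjusted p under 0.05, 315 genes were higher (5.11%) and 357 lower (5.79%), which is the background for the counts at that threshold given below. The 10 higher genes were ASH1, PHO3, PHO11, PHO12, PHO5, PHO89, MSA1, MCM5, STE6 and MCM3. The 7 lower genes were HTA2, HTA1, HTB1, HTB2, GAS3, SIM1 and FKS1. These calls depend on single arrays: without the 90 min array or without the 100 min array none of the 17 was called, without the 60 min array 53 higher and 30 lower genes were called, and without the 70 min array 198 and 200. All 17 were among those called in both of the latter fits.

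**Figure D1:**
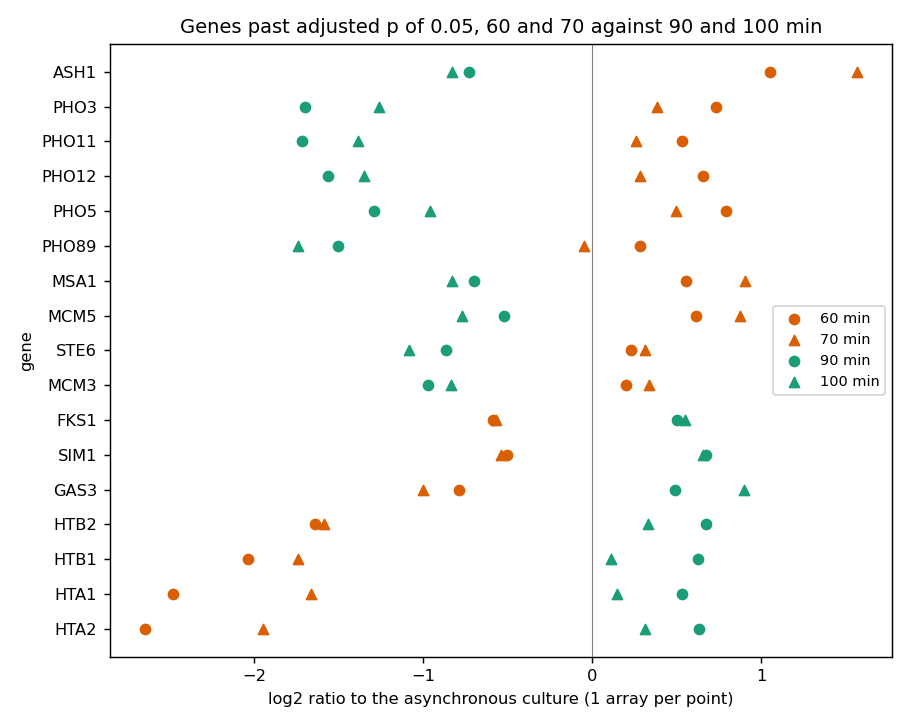
Log2 ratio to the asynchronous culture (x axis) of the 17 genes past an adjusted p of 0.05 (y axis), with 1 point per array: orange for 60 and 70 min, green for 90 and 100 min, circles for the earlier and triangles for the later array of each pair. Orange points lie to the right of green ones for the 10 higher genes and to the left for the 7 lower genes, with no overlap; ASH1 reached 1.57 at 70 min and HTA2 lay at -2.64 at 60 min.

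A rule of size and order, with no test, gave a wider view. In 45 genes (0.73%) both early arrays lay above both late ones and the means differed by at least 1 log2, which is 2-fold, and in 31 genes (0.503%) both lay below by as much. Without the 70 min array these were 99 and 87 genes, without the 90 min array 77 were on the higher side, and without the 100 min array 49 were on the lower side. Order alone was common: 1305 genes (21.2%) had both early values above both late ones and 1497 (24.3%) had both below. These shares are the background for the counts by order given below. Of the 76 genes apart by 1 log2, 18 had a change from 60 to 70 min larger than the difference itself, and in 15 of these the 60 min array held the extreme value. SLA1, which encodes an actin patch protein of endocytosis, read -5.07 at 60 min and between 0.16 and 0.24 on the other 3 arrays. BSC5, an uncharacterised gene, read 5.61 at 70 min and between -0.16 and 0.18 on the other 3. Such genes pass the size rule on 1 array, and neither SLA1 nor BSC5 was called (limma adjusted p of 0.54 and 0.519).

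A further view used all 9 arrays from 40 to 120 min, the 4 above among them, by fitting a curve with a 60 min period and testing its value at 60 and 70 against 90 and 100 min. By limma at an adjusted p under 0.05 this gave 45 higher genes (0.73% of 6165) and 49 lower genes (0.795%). Of the 17 genes called on 4 arrays, 14 were called by the curve, and the other 3 were PHO11, PHO12 and PHO89. The arrays of 120 and 40 min lie 1 nominal cycle of 60 min from 60 and 100 min and entered neither pair. Both entered the curve. In genes with values on all 9 arrays, the difference of the curve is the mean of 60, 70 and 120 min minus the mean of 40, 90 and 100 min. A call by the curve and the difference of 120 minus 40 min are thus not separate support. The difference of 120 minus 40 min, 1 array each, had the same sign as the main difference in 7 of the 10 higher and 7 of the 7 lower genes. It did so in 34 of the 45 and 24 of the 31 genes apart by 1 log2, beside 53.5% of 6124 genes with both values.

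Genes of the mitotic exit machinery itself did not share a direction. Over 17 members of the mitotic exit network and the activators of the anaphase-promoting complex (APC) the median difference was 0.05, beside -0.01 over all genes tested, with 9 above 0. No member was called, while at an unadjusted p under 0.05 there were 3 higher and 1 lower. DBF2, a kinase of the network, read 0.49 at 60 and 70 min and -0.64 and -0.30 at 90 and 100 min, a difference of 0.96 ± 0.16 (SE). Its early values did not overlap its late ones, and it was called by the curve (limma adjusted p of 0.0180) and not on the 4 arrays (0.110). SPO12, a nucleolar activator of Cdc14 release, read 0.87, 0.40, -0.25 and -0.10 at 60, 70, 90 and 100 min and was also called by the curve (0.00867). CDC20, which encodes an APC activator, read 0.78, 0.26, -0.45 and -0.06 (adjusted p of 0.356). AMN1, whose product antagonises the network in daughter cells, was low at 60 min and high at 70 min, with -0.69 and 0.54 against -0.70 and -1.10 (0.82 ± 0.39). BFA1, whose product holds the network in check at the spindle pole, went the other way, with -0.67, -0.36, 0.19 and 0.05, and was called lower by the curve (0.0121). CDC14, TEM1, CDC15 and CDH1, which encode the phosphatase, GTPase, a kinase and the late APC activator, had differences between -0.24 and 0.17. Without the 60 min array the list median was -0.16, and without each of the other 3 arrays it was between 0.02 and 0.08.

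The CLB2 cluster, genes of G2/M that precede mitotic exit, differed more within each pair of arrays than between the pairs. From 60 to 70 min only 2 of its 19 members were up, with a median change of -0.53, and from 90 to 100 min 19 of 19 were up, with a median of 0.49. Between the pairs 17 of 19 members differed by more than 0 (89.5%, beside 48.0% of all genes). In 7 both early values lay above both late ones (36.8%, beside 21.2%), and in none below. The median difference between the pairs was 0.39. It was 0.11 without the 60 min array, 0.70 without the 70 min array, 0.23 without the 90 min array and 0.60 without the 100 min array. No member was called higher or lower, 6 were higher at an unadjusted p under 0.05, and 2 were called higher by the curve (DBF2 and SPO12). Both of these genes and CDC20 are also in the list of the mitotic exit network, and SWI5 is also among the S/G2 regulators below. CLB2, the main mitotic cyclin gene, read 0.43 at 60 min, -0.24 at 70 min, -0.34 at 90 min and 0.33 at 100 min. SWI5, which encodes the factor that enters the nucleus at mitotic exit, read 0.81, 0.27, -0.02 and 0.30. The values of the pairs overlapped for both genes, with a difference of 0.10 ± 0.30 for CLB2 and 0.39 ± 0.22 for SWI5. CDC5, the polo kinase gene (0.12 ± 0.33), and CLB1, another mitotic cyclin gene (-0.52 ± 0.29), were not called either. The difference of SWI5 was 0.13 without the 60 min array, 0.66 without the 70 min array and 0.23 without the 90 min array, and that of CLB1 was -0.08 without the 100 min array and -0.95 without the 90 min array. The sign of CDC5 turned without the 60 min or the 90 min array, and that of CLB2 in the same fits.

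CHS2, IQG1 and HOF1, the 3 cytokinesis genes with the largest differences, were highest at 60 min and lowest at 90 min of the 4 arrays. The CLB2 cluster was so too by its medians. Its list shares members with the cytokinesis list, HOF1 and IQG1 among them, so the likeness is not separate support. The cytokinesis list median was highest at 100 min, with 0.11, 0.01, -0.04 and 0.17 on the 4 arrays in order of time. By order 4 of 18 members were higher and 4 lower (22.2% each, beside 21.2% and 24.3% of all genes). CHS2, the chitin synthase of the primary septum, read 1.43 at 60 min and 0.54 at 70 min, then -0.53 at 90 min and 0.61 at 100 min. IQG1, the scaffold of the actomyosin ring, read 1.03, 0.41, -0.32 and 0.18. HOF1, a ring and septum protein, read 0.56, 0.44, -0.95 and -0.11 and was the only 1 of 18 cytokinesis genes apart by 1 log2 (1.03 ± 0.27, limma adjusted p of 0.340). In CHS2 the 100 min value lay above the 70 min value. The 5 septin genes lay between -0.74 and 0.05 in difference, with CDC11 the lowest. The list median was 0.07, and it was -0.02 without the 60 min array and -0.05 without the 90 min array. None of the 18 cytokinesis genes was called on the 4 arrays or by the curve, with 3 higher and 2 lower at an unadjusted p under 0.05.

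**Figure D2:**
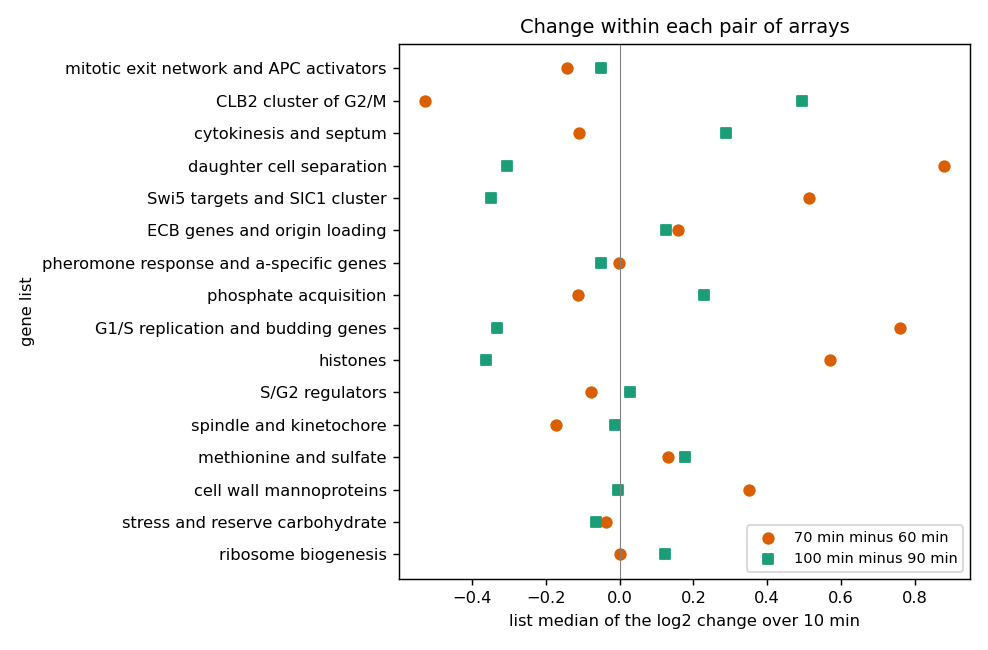
Median over the members of each gene list (y axis) of the log2 change over 10 min (x axis), as circles for 70 minus 60 min and squares for 100 minus 90 min. The CLB2 cluster lies at -0.53 and 0.49, and the lists for daughter cell separation, Swi5 targets, G1/S genes and histones lie above 0 for the early pair and below 0 for the late pair.

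Swi5 targets and the SIC1 cluster were the list with the largest share of members higher at 60 and 70 min by order. In 13 of 15 members both early values lay above both late ones, 7 were apart by 1 log2 and 1 was called higher, with a median difference of 0.97. At an unadjusted p under 0.05, 12 were higher and 1 was lower, and 6 were called higher by the curve. ASH1, which encodes the repressor that keeps daughter cells from switching mating type, read 1.05 at 60 min and 1.57 at 70 min against -0.73 at 90 min and -0.83 at 100 min. Its mean was 4.25-fold higher in the early pair (2.09 ± 0.20, limma adjusted p of 0.0346), and 120 min stood 2.39 above 40 min. SIC1, the cyclin-dependent kinase inhibitor that marks G1 entry, read 0.51 and 0.90 against -0.46 and -0.84. The groups did not overlap (1.36 ± 0.20), but the adjusted p was 0.0832 on 4 arrays, and 0.0112 by the curve.

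PCL9, a Pho85 cyclin gene of early G1, read 0.53 and 1.51 at 60 and 70 min against -0.71 and -1.01 at 90 and 100 min. HSP150, a Pir-type wall protein gene, read 0.33 and 1.25 against -0.75 and -1.52. CDC6, which encodes the origin loading factor, read 0.71 and 0.75 against -0.65 and -0.26. All 3 were apart by 1 log2 and none was called on the 4 arrays, with limma adjusted p of 0.114, 0.174 and 0.0730. By the curve PCL9 (0.00133) and HSP150 (0.00665) were called and CDC6 (0.0523) was not. PCL9 and HSP150 read 0.98 and 0.92 higher at 70 than at 60 min, and CDC6 0.04 higher. PST1, a wall protein gene, was called by the curve as well (1.02 ± 0.24 on 4 arrays). RME1, which encodes a repressor of meiosis that also acts on G1 cyclin genes, stood apart from this pattern with -0.72 at 60 min and 0.65 at 70 min against -0.26 and -0.61, and its sign turned without the 70 min array. CIS3, another Pir-type gene, was the member with both early values below both late ones (0.01 and 0.25 against 0.59 and 0.88). TEC1, a transcription factor gene of filamentous growth, differed by 0.74 ± 0.21 here and stood 3.59 higher at 120 than at 40 min.

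Daughter cell separation genes were late within the early pair. From 60 to 70 min 12 of 13 were up, with a median change of 0.88, and from 90 to 100 min 1 of 13 was up. The median difference was 0.24, and it was 1.07 without the 60 min array, 0.11 without the 70 min array and 0.49 without the 90 min array. EGT2, a wall protein gene needed for separation, read -0.08 at 60 min and 1.28 at 70 min against -0.66 and -1.53 at 90 and 100 min. DSE3 read 0.55 and 1.48 against -0.07 and -0.86. NIS1, a bud neck protein gene, read -0.05 and 0.99 against -0.35 and -0.75. These 3 were apart by 1 log2, with the 60 min value between the 70 min value and the late ones, and with limma adjusted p from 0.314 to 0.402. By the curve DSE3, NIS1 and DSE4, a glucanase gene, were called higher (0.0265, 0.0412 and 0.0168).

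DSE2, a daughter-specific wall protein gene, read -3.73 at 60 min and -0.62 at 70 min, against -0.83 and -1.23, so its early values lay on both sides of the late ones. SCW11, a glucanase-like gene, read -1.99 and 0.33 against -0.80 and -1.32. For both, 60 min was still low and 70 min high, and the difference of DSE2 turned from -1.15 to 0.41 without the 60 min array. DSE2 was highest of the 9 arrays from 40 to 120 min at 80 min, where it read 0.24. CTS1, the septum chitinase gene, stayed between -0.06 and 0.12 on the 4 arrays and differed by 0.03 ± 0.14. Over the list, 5 genes were higher at an unadjusted p under 0.05 and none was called. The median of 120 minus 40 min was 1.36, with 12 of 13 above 0.

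**Figure D3:**
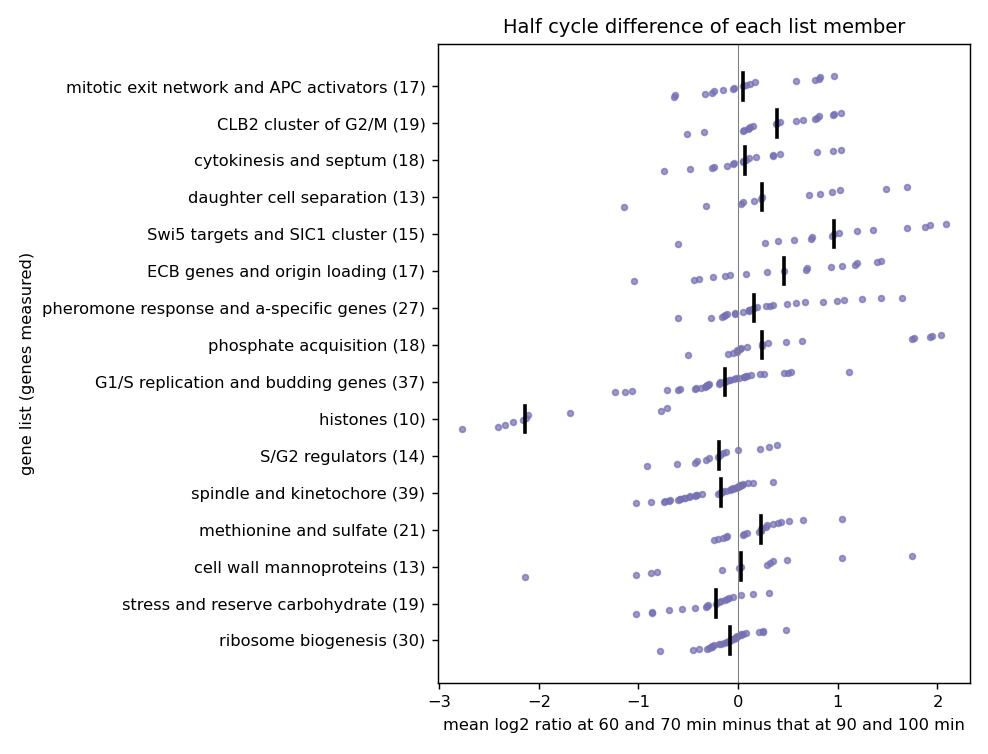
Difference of the mean log2 ratio between 60 and 70 min and 90 and 100 min (x axis) for each measured member of 16 gene lists (y axis, genes measured in parentheses), 1 point per gene, with a black bar at the list median. The histone points lie at -0.71 and below, those of Swi5 targets reach 2.09, and the 5 phosphate points from 1.74 to 2.04 lie apart from the other 13.

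Genes with early cell cycle boxes and of origin loading were split by complex. Among 17 measured genes 2 were called higher and none lower, 5 were apart on the higher side and 1 on the lower, and the median difference was 0.46. The 5 include CDC6, counted among the Swi5 targets as well, and FAR1, counted among the pheromone genes as well. That median was 0.31 without the 100 min array. All 6 genes of the MCM helicase, the complex loaded at origins in G1, had both early values above both late ones, with differences from 0.46 to 1.39. MCM5 read 0.61 at 60 min and 0.87 at 70 min against -0.52 at 90 min and -0.77 at 100 min, 2.63-fold higher (1.39 ± 0.16, limma adjusted p of 0.0487). MCM3 read 0.20 and 0.33 against -0.97 and -0.84, 2.25-fold higher (1.17 ± 0.14, adjusted p of 0.0487). Neither gene's groups overlapped, and the early values lay above the culture while the late ones lay below it.

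By the curve 5 of the 6 MCM genes were called higher, MCM7 being the other (adjusted p of 0.0713), and all 6 were higher at 120 than at 40 min, by 0.51 to 1.60. The 6 genes of the origin recognition complex (ORC), which stays on origins through the cycle, had differences from -1.05 to 0.08, and none was called on the 4 arrays or by the curve. The lowest was ORC2, which read -1.92 at 60 min and between -0.34 and -0.04 on the other 3 arrays. CLN3, the cyclin gene that starts the G1 program, read 0.32 and 0.36 against -0.79 and -0.62, with no overlap (1.04 ± 0.14, adjusted p of 0.0611). Its difference of 120 minus 40 min was 0.03. SWI4, which encodes the DNA-binding part of the G1 factor SBF, read 0.44 and 0.60 against 0.41 and 0.06 (0.29 ± 0.17). MSA1, whose product binds the G1 factors SBF and MBF, was in no list. It read 0.55 and 0.90 against -0.70 and -0.83, 2.81-fold higher (1.49 ± 0.17, adjusted p of 0.0487), and it was called by the curve (0.000340).

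Genes of pheromone response and of MATa cells were higher in part. Of 27 measured, 1 was called higher, 4 were apart by 1 log2 and 7 were called higher by the curve, with none lower by any of the 3 rules. The median difference was 0.16, and it was 0.29 without the 90 min array and 0.10 without the 100 min array. STE6, the exporter of a-factor, read 0.23 at 60 min and 0.31 at 70 min against -0.87 at 90 min and -1.09 at 100 min. It was 2.37-fold higher with no overlap (1.24 ± 0.14, limma adjusted p of 0.0487). BAR1, the secreted protease that degrades alpha factor, read -0.27 and 0.33 against -1.37 and -1.86, and FAR1, which encodes the inhibitor that arrests cells in G1, read -0.04 and 0.55 against -1.13 and -1.23. Both were apart by more than 1 log2 and missed the threshold (0.0976 and 0.0832). GPA1, the G protein alpha subunit gene, differed by 1.06 ± 0.21 and STE2, the alpha factor receptor gene, by 0.99 ± 0.19.

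All 5 of these genes were called higher by the curve (adjusted p from 0.00226 to 0.0100), and they stood 1.74 to 2.77 higher at 120 than at 40 min. They had also been high under pheromone, at 1.02 for STE6, 1.28 for GPA1, 1.40 for STE2, 1.71 for FAR1 and 2.39 for BAR1 at 0 min. Genes that pheromone induces for cell fusion lay closer to 0. FUS1 differed by 0.68 ± 0.24 and FUS2 by 0.14 ± 0.17, and FIG1 by -0.03 ± 0.14. KAR3, a kinesin gene used in karyogamy and mitosis, read 0.06 and -0.30 against 0.64 and 0.32, the lowest difference of the list (-0.60 ± 0.19, adjusted p of 0.371).

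Phosphate genes contributed 5 of the 10 genes called higher, all from the acid phosphatases and 1 transporter. PHO3, the acid phosphatase gene that does not depend on phosphate supply, read 0.73 at 60 min and 0.38 at 70 min against -1.70 at 90 min and -1.26 at 100 min. PHO5, the main repressible acid phosphatase gene, read 0.79 and 0.49 against -1.29 and -0.96. Its neighbour PHO3 lies in tandem with it. They were 4.11-fold (2.04 ± 0.20) and 3.40-fold (1.77 ± 0.18) higher, each at a limma adjusted p of 0.0358. PHO11 read 0.53 and 0.26 against -1.72 and -1.39, and PHO12 read 0.66 and 0.28 against -1.57 and -1.35. They differed by 1.95 ± 0.18 and 1.93 ± 0.18, each at 0.0346. PHO11 and PHO12 encode nearly identical phosphatases, and PHO3 and PHO5 are related, so these genes may not be separate measurements, which was not tested.

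PHO89, the sodium-coupled phosphate transporter gene, read 0.28 and -0.05 against -1.51 and -1.74 (1.74 ± 0.17, adjusted p of 0.0358). In all 5 genes the 60 min value was the highest of the 4. The 5 genes differed in the rest of the course. PHO3 and PHO5 came back to 0.15 and 0.29 at 120 min, 0.57 and 0.73 above 40 min. PHO11 and PHO12 reached -0.53 and -0.46 at 120 min and PHO89 -1.37, which is 0.26, 0.22 and 1.35 below 40 min by value. The curve called PHO3 and PHO5 (0.0180 and 0.00665) and did not call PHO11, PHO12 or PHO89 (0.170, 0.167 and 0.548).

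None of the other 13 phosphate genes was called. Their differences ran from -0.50 to 0.64, with a median of 0.03, and the curve called none of them. PHO84, the proton-coupled high-affinity phosphate transporter gene, lay at the low end, with -0.90 and -0.60 against -0.38 and -0.12. SPL2, a regulator of low-affinity phosphate uptake, read -0.12 and -0.35 against -0.78 and -0.30, and PHO81, which encodes the inhibitor of the Pho80-Pho85 kinase, stayed between -0.12 and -0.03. The vacuolar polyphosphate synthesis genes VTC1 to VTC4 differed by -0.10 to 0.24. Over all 18 phosphate genes the median difference was 0.24, the mean 0.60, and the median of 120 minus 40 min -0.21.

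**Figure D4:**
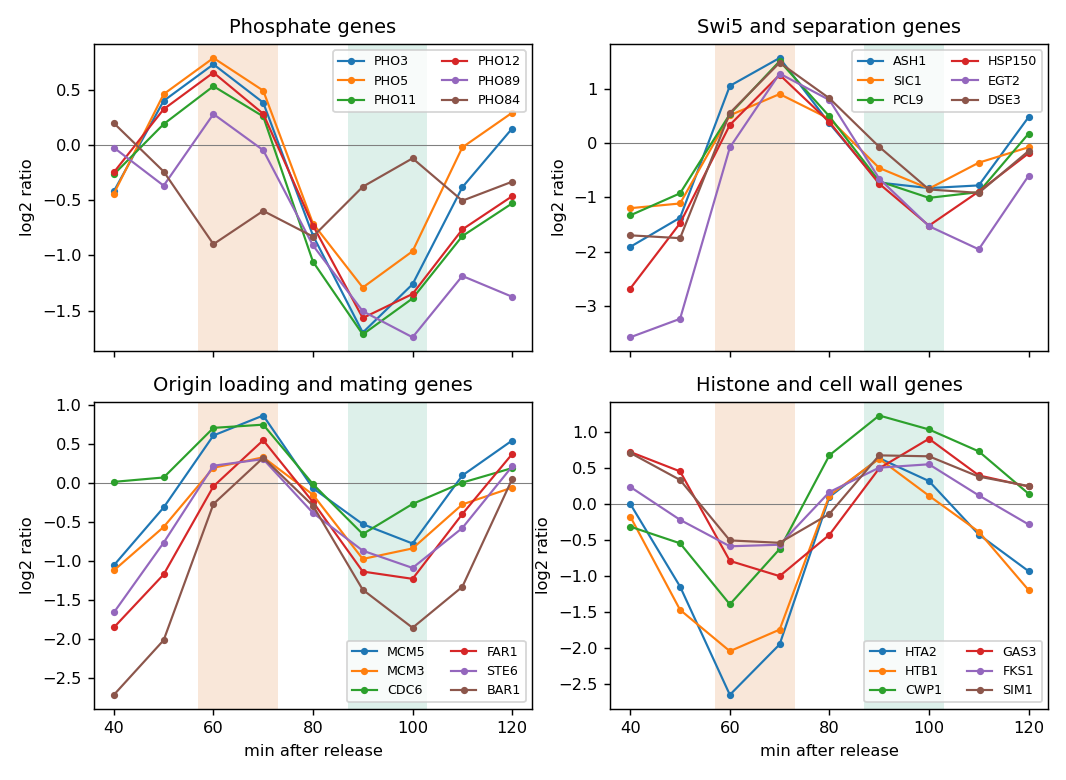
Log2 ratio to the asynchronous culture (y axis) of 24 genes on the 9 arrays from 40 to 120 min after release (x axis), in 4 panels by group, with 1 array per point and shading over the 60 and 70 min (orange) and 90 and 100 min (green) arrays. The acid phosphatase genes are highest at 60 min and lowest at 90 min while PHO84 does not follow them, the 6 Swi5 and separation genes drawn are highest at 70 min, and the histone and wall genes are low in the orange and high in the green band.

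Histone genes were the largest group on the lower side. All 10 measured histone genes had both early values below both late ones, with a median difference of -2.14, 4 were called lower and 8 were apart by 1 log2. By the curve all 10 were called lower. HTA2, a gene of histone H2A, read -2.64 at 60 min and -1.95 at 70 min against 0.63 at 90 min and 0.31 at 100 min, 6.81-fold lower (-2.77 ± 0.25, limma adjusted p of 0.0346). HTA1, the other H2A gene, read -2.48 and -1.66 against 0.53 and 0.15 (-2.41 ± 0.29, 0.0487). HTB1 and HTB2, the genes of histone H2B, differed by -2.26 ± 0.21 and -2.11 ± 0.16, each at 0.0346. In all 4 genes the 60 min value was the lowest and the 90 min value the highest of the 4 arrays.

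The genes of histones H3 and H4 had differences of like size and were not called. HHT2, for H3, read -2.07 and -1.29 against 0.64 and 0.32 (adjusted p of 0.0580), and HHF1, for H4, read -2.23 and -1.52 against 0.84 and 0.09 (0.0727). From 60 to 70 min 9 of the 10 genes were up and from 90 to 100 min 8 were down by value. HTZ1, for the variant H2A.Z, and HHO1, for the linker histone, differed less, by -0.71 ± 0.17 and -0.77 ± 0.13. The 8 core genes form 4 divergent neighbour pairs, 1 gene of each pair transcribed away from the other. Among the 76 genes apart by 1 log2, 71 could be placed in the gene table, and it held 5 pairs of direct neighbours, these 4 and PHO3 with PHO5. Gene copies of a histone are nearly identical, so their values may not be separate measurements, which was not tested. At 120 minus 40 min the 8 core genes lay between -1.08 and -0.67.

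The other 3 genes called lower were in no list, and their common tie to the cell wall was seen only after they were called. FKS1, the catalytic subunit gene of the glucan synthase that builds the wall of the growing bud, read -0.59 at 60 min and -0.57 at 70 min against 0.50 at 90 min and 0.55 at 100 min. GAS3, of a family of wall glucan-remodelling proteins, read -0.79 and -1.002 against 0.49 and 0.90, and SIM1, of the SUN family of wall proteins, read -0.51 and -0.54 against 0.67 and 0.66. All 3 were below the culture in the early pair and above it in the late pair, and they were 2.15-fold (FKS1, -1.10 ± 0.13), 3.01-fold (GAS3, -1.59 ± 0.18) and 2.28-fold (SIM1, -1.19 ± 0.13) lower. Their limma adjusted p were 0.0487, 0.0487 and 0.0452, and the curve called all 3.

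Other wall genes apart by 1 log2 lay on both sides. HSP150, EGT2 and PST1, wall protein genes given above, were higher, by 1.93, 1.69 and 1.02. PSA1, PMI40 and SCW10 were picked from the lower side after their values were seen. PSA1 and PMI40, which encode enzymes that make GDP-mannose for wall mannoproteins, differed by -1.55 ± 0.32 and -1.01 ± 0.16. SCW10, a glucanase-like gene, read -1.27 and -0.38 against 0.67 and 0.35. None of these 3 was called on the 4 arrays (limma adjusted p from 0.104 to 0.246), and PMI40 and SCW10 were called by the curve (0.0257 and 0.00867). Among 13 mannoprotein genes the median was 0.03 (-0.03 without the 70 min array), with 2 apart on each side. CWP1, a wall mannoprotein gene, read -1.39 and -0.63 against 1.22 and 1.03 (-2.13 ± 0.26) with an adjusted p of 0.0505. YGP1, a secreted glycoprotein gene, went the other way with 1.90 and 1.16 against -0.26 and -0.17 (1.75 ± 0.25, 0.0730), and TIP1 read -0.34 and 0.02 against -1.14 and -1.26. Mannoprotein genes thus held values of both signs, and the curve called 2 on each side.

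G1/S genes, which are transcribed just before S phase, lay at the edges of both pairs. From 60 to 70 min 34 of 37 were up, with a median change of 0.76, and from 90 to 100 min 2 of 37 were up, with a median of -0.33. The median difference between the pairs was -0.13. It was 0.22 without the 60 min array, 0.07 without the 90 min array, -0.52 without the 70 min array and -0.35 without the 100 min array. CLN2, a G1 cyclin gene, read -1.67 at 60 min, 0.07 at 70 min, 0.65 at 90 min and 0.03 at 100 min. RNR1, a subunit gene of ribonucleotide reductase, read -1.62, 0.23, -0.30 and -0.92. For both genes the 60 min value was the lowest of the 4. SVS1, a wall protein gene of this group, read -1.36 and 0.19 against 0.995 and 0.31 and was apart by more than 1 log2 (-1.23 ± 0.50). CDC9, the DNA ligase gene, was apart on the higher side, with 1.60 at 60 min and 0.34 at 70 min against 0.05 and -0.34. Without the 60 min array the differences of SVS1 and CDC9 were -0.46 and 0.48. None of the 37 was called on the 4 arrays or by the curve, with 1 higher and 4 lower at an unadjusted p under 0.05, near the background.

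Genes of S and G2 regulators and of the spindle were mostly lower by small amounts. Of 39 spindle and kinetochore genes, 20 had both early values below both late ones (51.3%, beside 24.3% of all genes). Of the 39, 1 was apart by 1 log2 and none was called, with a median of -0.17. At an unadjusted p under 0.05, 17 were lower and none higher, and the curve called 4 lower. Without the 70 min array the median was -0.29, and without the 60 min array -0.26. STU2, a microtubule polymerase gene, read -0.55 and -0.07 at 60 and 70 min against 0.69 and 0.73 at 90 and 100 min (-1.02 ± 0.19, limma adjusted p of 0.154). BIM1, a gene of a microtubule plus-end protein, read -0.84 and -0.07 against 0.35 and 0.21. ESP1, the separase gene, read -0.31 and -0.48 against 0.43 and 0.53 and was called by the curve (0.00383). KIP3, a kinesin gene, TUB1, for alpha-tubulin, and SPC97, of the gamma-tubulin complex, were the other 3 genes that the curve called lower.

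Among 14 S/G2 regulators (WHI5, with a value at the limit at 60 min, was not tested) the median was -0.19, with none called on the 4 arrays. By order 6 genes were below (42.9%, beside 24.3% of all genes) and 1 was above (7.14%, beside 21.2%). At an unadjusted p under 0.05, 4 were lower and none higher. That median was -0.32 without the 100 min array. FKH1, a forkhead factor gene, read -0.19 and -0.32 against 0.49 and 0.83, and CLB4, a B-type cyclin gene, read -0.18 and -0.31 against 0.33 and 0.42. Both had no overlap and were called lower by the curve (limma adjusted p of 0.0269 and 0.0157). FKH2 differed by -0.43 ± 0.13, NDD1, a coactivator gene of the CLB2 cluster, by -0.29 ± 0.20, and HCM1, the forkhead gene of S phase, by -0.32 ± 0.29. CLB3 (0.22 ± 0.31) read 0.73 at 60 min and -0.24 at 70 min, and its sign turned without the 60 min array, as did that of HCM1.

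Several genes outside the cell cycle lists were also far apart and were picked out after their values were seen. MRH1 and YRO2, which encode related membrane proteins, read 1.04 and 1.04 against -1.54 and -0.61, and 0.68 and 1.17 against -0.83 and -0.44. They differed by 2.11 ± 0.29 and 1.57 ± 0.22 with a limma adjusted p of 0.0727 each, and the curve called both (0.00102 and 0.00231). MEP2, an ammonium transporter gene, read -1.43 and -1.22 against -0.21 and 0.08 (-1.26 ± 0.16, 0.0611), and at 120 and 40 min it stood at -0.38 and -0.43. Of 21 methionine and sulfate genes 10 had both early values above both late ones (47.6%, beside 21.2% of all genes) and none had both below. Their median was 0.23 and none was called, with 5 higher at an unadjusted p under 0.05. Without the 90 min array the median was 0.08. MET14, the adenylylsulfate kinase gene, read 1.33 and 1.28 against 0.14 and 0.37 (1.05 ± 0.14, 0.0727). MET6, for methionine synthase, and SUL2, for a sulfate permease, differed by 0.65 ± 0.19 and 0.51 ± 0.14. At 120 minus 40 min the methionine list had a median of -0.27, the other sign.

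Stress and reserve carbohydrate genes had mostly negative differences. Of 19, 11 had both early values below both late ones (57.9%, beside 24.3% of all genes) and 1 had both above (5.26%, beside 21.2%). The median was -0.23 and none was called, with 6 lower and none higher at an unadjusted p under 0.05 by limma. PGM2, for phosphoglucomutase, read -0.47 at 60 min and -0.00130 at 70 min against 0.99 and 0.59. TSL1, for a trehalose synthase subunit, read 0.22 and 0.15 against 1.25 and 0.85, and GSY2, for glycogen synthase, read 0.13 and -0.26 against 0.93 and 0.68. These 3 had no overlap and were not called (adjusted p from 0.187 to 0.223). Among 30 ribosome biogenesis genes the median was -0.08 (-0.16 without the 90 min array and -0.02 without the 100 min array). By order 3 were above (10%, beside 21.2% of all genes) and 10 below (33.3%, beside 24.3%). None was called, with 1 higher and 3 lower at an unadjusted p under 0.05 by limma, near the background. DBP2, an RNA helicase gene, read -1.62 and -1.07 against -0.50 and -0.63, and DBP3, another helicase gene, differed by -0.45 ± 0.17. GAR1, of the box H/ACA ribonucleoproteins, went the other way, with -0.37 and -0.54 against -0.93 and -0.95.

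The labels of the pairs as mitotic exit with early G1 and as S with G2 were set against these lists. SIC1, ASH1 and the MCM genes lay above the culture at 60 and 70 min and below it at 90 and 100 min, and the core histone genes lay the other way. The early pair was not uniform, since the CLB2 cluster was higher at 60 min and the separation and G1/S genes were higher at 70 min. Nor was the late pair, since G1/S and histone genes were higher at 90 min and the CLB2 cluster at 100 min. The difference of 120 minus 40 min had the same sign as the main one in 13 of 15 Swi5 targets, all 6 MCM genes and all 10 histone genes. It did so in 7 of 18 phosphate genes, 7 of 21 methionine and sulfate genes and 7 of 19 stress genes. The share was 53.5% of 6124 genes with both values. Near it were the CLB2 cluster (10 of 19), cytokinesis genes (10 of 18) and G1/S genes (22 of 37).

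**Figure D5:**
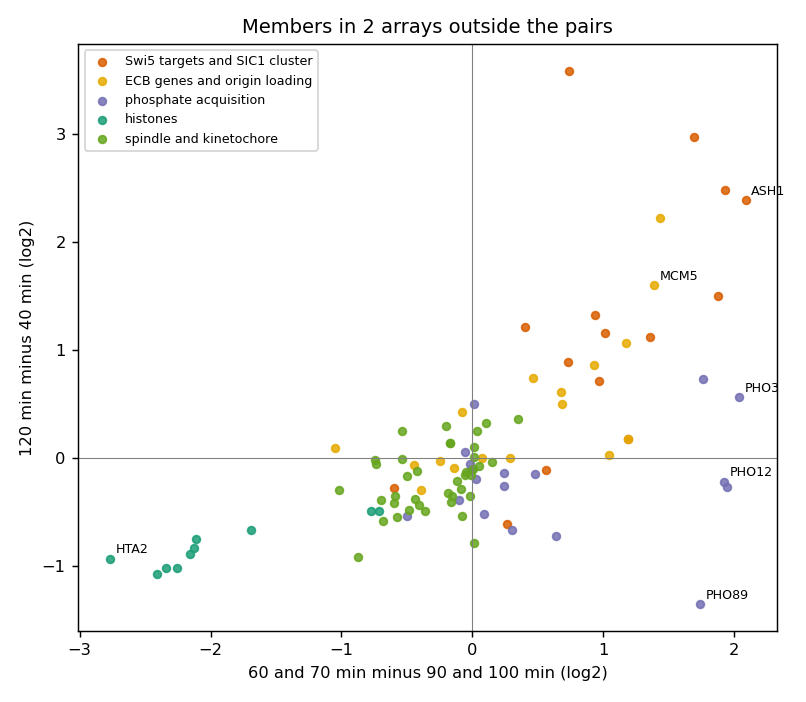
Difference between 60 and 70 min and 90 and 100 min (x axis, log2) against the difference between 120 and 40 min (y axis, log2), 1 point per gene, for 5 gene lists by colour. Histone points lie at the lower left, most Swi5 targets and MCM genes at the upper right, and PHO12 and PHO89 lie to the right but below 0 on the y axis, at -0.22 and -1.35.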

How the data were processed

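The deposited values are 1 log10 ratio per feature and array, per the labels from Cy5-labelled time points and a Cy3-labelled asynchronous culture. The base was read from the values, which end at 100-fold. The background correction, the normalization and the spot flags are not given in the sources that were at hand. Values of size 1.99 or more were treated as missing and the rest multiplied by 3.32 to give log2. Of 6205 rows, 5704 were named through RefSeq's R64 gene table and 12 control rows were left out. The main test was limma 3.58.1 in R 4.3.3 on 4 arrays, with 2 residual and 4.16 prior degrees of freedom and Benjamini-Hochberg adjustment over 6166 genes. It was also run on simulated independent noise with known changes added. Such noise does not model the ordered change between neighbouring time points, so that run does not bear on this part of the error. Plots used matplotlib 3.10.9 in Python 3.11.15.

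The comparison, the members and the 16 gene lists were chosen with earlier results of these data known. Some lists share members, so a gene can count in more than 1 of them. The genes named were 20 regulators regardless of outcome, of which 1 is left out of the text, the 3 members of each list with the largest difference (called ones before others) and the 8 largest called genes on each side, filled up with genes apart by 1 log2. List members cited beside these, and genes marked as picked out later, were chosen after their values were seen. The number of arrays limits the precision.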

Additional observations from a re-analysis of the deposited data

Results flagged for a closer look

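The difference of 120 minus 40 min, 1 array each, was opposite in sign to the difference of 60 and 70 against 90 and 100 min for 3 genes called higher and for the medians of 6 gene lists. It was -0.26 log2 for PHO11, -0.22 for PHO12 and -1.35 for PHO89. The phosphate list had a median of -0.21 and the list of stress and reserve carbohydrate genes a median of 0.11, and in both the list medians of the early and late arrays did not overlap. The other 4 medians were -0.27 for methionine and sulfate genes, -0.03 for the CLB2 cluster, -0.06 for cytokinesis and 0.03 for G1/S genes. Whether these differences differ from the main ones was not tested, since each rests on 1 array per time.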

How the results depend on the processing

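All 17 called genes kept their sign under all 13 alternatives run, but few kept their call under some. Their early and late values did not overlap, so leaving out 1 array could not turn a sign. The other alternatives used the same 4 arrays again, so the kept signs are not separate support. Against 10 genes higher and 7 lower, there were 1 and 0 with values at the limit kept and 2 and 4 after quantile normalization. With arrays centred on their medians there were 6 and 3. With 6 arrays there were 8 and 1, and 4 of the 17 kept their call. There were 0 and 0 by limma's ordinary test without shared variance (496 genes at an unadjusted p under 0.05). There were 45 and 49 with the curve of a 60 min period and 67 and 70 with 65 min. Leaving out 1 array gave 0 to 198 higher and 0 to 200 lower. Such a fit has 1 residual degree of freedom and assumes that the lone array varies like the other pair. Genes apart by 1 log2 numbered 45 higher and 31 lower. There were 27 and 15 with 6 arrays and 201 and 213 at 0.5 log2, and 52 to 99 and 21 to 87 without 1 array. Leaving out 1 array turned the sign of 4 list medians and of 6 named genes. The values then ran from -0.163 to 0.0800 for the mitotic exit list, -0.0488 to 0.168 for cytokinesis, -0.522 to 0.217 for G1/S, -0.0306 to 0.0717 for mannoproteins, -0.282 to 0.515 for CDC5, -0.282 to 1.08 for RME1, -0.237 to 0.432 for CLB2, -0.264 to 0.708 for CLB3, -0.704 to 0.0685 for HCM1 and -2.70 to 0.407 for DSE2. With 6 arrays CLB2 was at -0.00770, and the 60 min curve gave the same value because its difference is that of the same 6 arrays. The cause of the turned signs was not tested. No paired analysis was possible because each time point has 1 array and no replicates were made.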
